A study of Homo sapiens with 4 samples.

Results

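Molecular chaperones bind unfolded or partly folded proteins and help them to fold, to be transported or to be degraded. HSP70 proteins work with J-domain proteins, which deliver substrates and stimulate ATP hydrolysis, and pass some clients on to HSP90. The TRiC ring of the cytosol and the HSPD1-HSPE1 chaperonin of mitochondria enclose their substrates, and small heat shock proteins hold denatured proteins in a soluble state. Heat and other protein damage raise transcription of many of these genes through the factor HSF1, whereas stress in the endoplasmic reticulum (ER) raises another set through ATF6 and related factors.

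The heat shock and chaperone genes described here were picked by symbol from the 27011 genes of the deposited count table. A total of 95 symbols had an HSPA, HSPB, HSPD1, HSPE1, HSPH1, HSP90, DNAJA, DNAJB, DNAJC, CCT or TCP1 name. Of these, 7 pseudogenes and 5 antisense genes were dropped, and the read-through gene DNAJC25-GNG10 was kept apart. This left 82 genes: 15 of the HSP70 class, 3 HSP90 genes, 8 small heat shock genes, both genes of the mitochondrial chaperonin, 10 genes with a TRiC name, and 4, 12 and 28 J-domain genes of classes A, B and C. The rule for the choice uses symbols and no measured value.

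RNA was measured by RNA-Seq in 2 libraries of wild-type (WT) HEK293T cells and 2 libraries of Helz-null HEK293T cells. HEK293T is a line derived from human embryonic kidney, and HELZ is a putative RNA helicase that binds the CCR4-NOT deadenylase complex, which shortens the poly(A) tails of mRNAs. The Helz-null line was made with Cas9 and a guide RNA to a coding exon, which left a short deletion that shifts the reading frame. Whether it descends from 1 clone is not given in the sources used here, so that genotype and clone cannot be told apart. Cells of both genotypes were plated on the day before harvest and received no treatment, so every level below is one without imposed heat or ER stress. As RNA of whole cultures was measured, fewer cells with a transcript and less of it per cell cannot be told apart.

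Libraries held between 41745401 and 70464140 counts. HELZ itself was at 99.8 and 103.9 CPM (counts scaled to a common library size by the TMM method of edgeR) in WT and at 36.98 and 37.88 CPM in Helz-null libraries. Among markers of other cell types, 4 fibroblast genes summed to between 14.9 and 16.6 CPM, with DCN at 0 counts in every library, and 4 blood genes to between 1.83 and 2.15 CPM. Summed levels of 5 genes typical of HEK293T were 501 and 502 CPM in WT and 692 and 695 CPM in Helz-null cells. This rise was that of NEFM alone (log2FC 0.89, called up), as NEFL and LIN28B were at -0.041 and -0.062 and were not called, and PAX2 and SALL4 were at most 7.07 CPM. Summed levels of 4 epithelial genes were 99.3 and 102 CPM in WT against 78.4 and 78.6 CPM. Of these 4 genes, KRT8 and KRT18 were called down. The part of these markers in the results below was not tested.

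Promoter sequences show which of the genes carry the 2 classic stress elements. RefSeq promoters on GRCh38.p14, from 250 bases before to 50 bases after the start, were found for 73 of the 82 genes and searched on both strands. The first listed promoter was taken for each of these genes, whereas the shares over all promoters count every promoter. In 57 of the 73 the window held a stretch from near the 5' end of the gene's transcript, so the others may lie at another start. The heat shock element, the site that HSF1 binds, was sought as 3 alternating GAA and TTC blocks, starting with either and with 2 bases of any kind between blocks, and was found in 4 of the 73 promoters (5.48%), against 0.490% of 35116 promoters in all. These 4 belonged to HSPA8, which holds 2 copies, DNAJB6, HSPA6 and DNAJA1, in the last of which it lies after the start. The ER stress element, sought as CCAAT and CCACG with 9 bases of any kind between them, was found in 2 promoters (2.74%), those of HSPA5 and HSP90B1, against 0.0769% of all promoters. The 2 forms of the heat shock element share bases, so that overlapping copies were possible. A match is a run of letters and not a measured binding site, and other spellings of both elements were not searched. The stretches below, written 5' to 3' on the strand of the gene with the element in capitals, are shown because HSPA8 was called down, DNAJB6 was called up, and HSPA5 and HSP90B1 were not called, with the heat-inducible HSPA6 beside them.
HSPA8, chr11:123062334-123062386, minus strand: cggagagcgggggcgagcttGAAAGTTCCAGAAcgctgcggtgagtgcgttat
HSPA8, chr11:123062159-123062211, minus strand: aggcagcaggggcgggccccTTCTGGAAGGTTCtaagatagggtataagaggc
DNAJB6, chr7:157336853-157336905, plus strand: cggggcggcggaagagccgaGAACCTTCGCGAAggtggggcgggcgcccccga
HSPA6, chr1:161524446-161524498, plus strand: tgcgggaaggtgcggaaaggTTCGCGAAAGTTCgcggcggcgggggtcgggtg
HSPA5, chr9:125241371-125241429, minus strand: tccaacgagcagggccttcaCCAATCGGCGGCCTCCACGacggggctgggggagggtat
HSP90B1, chr12:103930196-103930254, plus strand: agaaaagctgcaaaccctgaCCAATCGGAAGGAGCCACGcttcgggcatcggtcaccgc
HSP90B1, chr12:103930301-103930359, plus strand: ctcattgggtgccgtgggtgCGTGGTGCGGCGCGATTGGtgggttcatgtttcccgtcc
The last of these carries the ER stress element in the reverse orientation.

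Of the 82 genes, 62 were among the 10978 genes that were tested. Loss of HELZ went with changes in both directions: 12 of the 62 were down-regulated in Helz-null cells, 6 were up-regulated and 44 were not called. A gene was called at a false discovery rate (FDR) under 0.005 in the quasi-likelihood F test of edgeR, fitted on all tested genes, the threshold used by the study. Among all tested genes, 15.5% were called down, 13.9% up and 29.4% in either direction, so that 18 of 62 is close to the share of all genes. The median log2 fold change (log2FC, Helz-null over WT) of the 62 genes was -0.018 and that of all tested genes was -0.00091. A log2FC below 0 was found for 33 of the 62 genes and for 50.2% of all tested genes. Both Helz-null libraries lay below both WT libraries for 25 of the 62 genes (35.7% of all tested genes) and above both for 20 (34.9%).

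The tested genes are those that the study kept at an FPKM (level per kilobase of gene) above 2. By FPKM computed here, HSPA1A exceeded this level in WT alone and HSPA2 in Helz-null cells alone, so that both could enter only through the group where they were high. Without them, 11 of 60 genes were called down and 5 up.

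The changes were small. Of the 18 called genes, 16 had an absolute log2FC under 0.4, and HSPA1A alone exceeded a change of 2-fold. A fold of at least 1.2 in either direction was reached by 6 of the 62 genes, against 15.8% of all tested genes. The 62 genes and their 20 untested relatives together took between 2.06% and 2.12% of all counts, and their summed CPM in Helz-null cells was 0.961 of that in WT. The count of down-regulated genes rested on both Helz-null libraries, as it was 7 without either of them. It was also 7 when counts were scaled by library size alone, which moved the median of the 62 genes to 0.015 and gave 11 up-regulated genes. Under that scaling 61.5% of calls over all genes were up, against 47.3% with TMM.

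**Figure D1:**
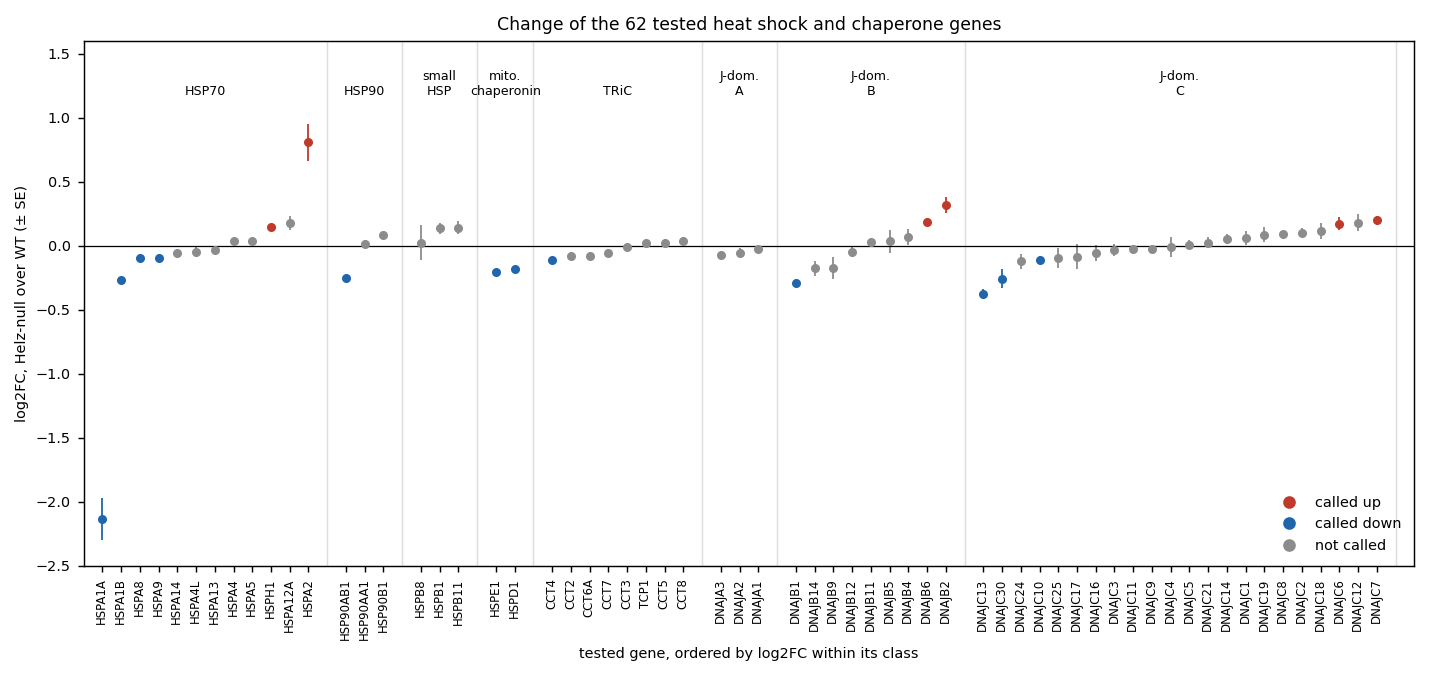
Log2 fold change (Helz-null over WT, TMM scaling) of the 62 tested heat shock and chaperone genes by class, each point a gene with its standard error and coloured by its call at an FDR under 0.005. Nearly all points lie close to 0, HSPA1A at -2.13 is the lowest and HSPA2 at 0.81 the highest, both genes above an FPKM of 2 in 1 genotype only, and with library size scaling the median over the points moves from -0.018 to 0.015.

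The other 20 genes were at low levels per length, with an FPKM of at most 1.76. HSPB2, a muscle-enriched small heat shock gene, and CCT8L2 had 0 counts in every library, where the floor of 3 counts corresponds to between 0.043 and 0.073 CPM, and 15 of the 20 stayed below 1 CPM in every library. The highest value among them was 7.34 CPM, reached by DNAJC27 in WT replicate 1. HSPA6, an HSP70 gene that human cells switch on strongly under heat, was at 0.733 and 0.634 CPM in WT and at 0.315 and 0.402 CPM in Helz-null libraries, from 46, 26, 13 and 28 counts, and was not tested.

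The HSP70 class moved in both directions. Of its 12 tested genes, 4 were down-regulated (HSPA1A, HSPA1B, HSPA8 and HSPA9), 2 were up-regulated (HSPA2 and HSPH1) and 6 were not called, with a median log2FC of -0.045. Beside these 6 calls of 12 stand the 15.5% down and 13.9% up of all tested genes. HSPA1A and HSPA2 could be tested only through the group where they were high, so this count is partly set by the selection of genes. HSPA1A and HSPA1B encode the stress-inducible cytosolic HSP70, and lie side by side on chromosome 6 of hg19 (31783320 to 31785723 and 31795515 to 31798031, plus strand), each as 1 exon. HSPA1B was the abundant copy, at 731 and 789 CPM in WT and 639 and 619 CPM in Helz-null libraries. Its log2FC was -0.27 (standard error, SE, 0.030; adjusted p = 7.01e-10, edgeR), a level that fell by 17.2%. HSPA1A was at 6.21 and 6.46 CPM in WT and at 1.65 and 1.31 CPM in Helz-null libraries, from 390, 265, 68 and 91 counts. Both Helz-null libraries were far below both WT libraries, with a log2FC of -2.13 (SE 0.16; adjusted p = 5.93e-14, edgeR). Its FPKM was 2.56 and 2.66 in WT and 0.677 and 0.537 in Helz-null libraries, so that it was in the tested set through WT alone, and with no filter on genes its log2FC was -2.13 as well.

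The change of HSPA1A is uncertain as a property of that gene. Of the 100-base windows of its 2400-base transcript, 72.4% also occur in HSPA1B, and how reads that match both were counted is not given in the sources used here. HSPA1A took 0.842% (95% Wilson interval 0.763 to 0.930) and 0.813% (0.721 to 0.916) of the counts of the pair in the WT libraries. In the Helz-null libraries it took 0.257% (0.203 to 0.325) and 0.210% (0.171 to 0.258). These intervals cover counting error only. With the counts of both genes added, the pair was at 737 and 795 CPM in WT and at 641 and 620 CPM in Helz-null libraries, and its log2FC was -0.28 (SE 0.030; adjusted p = 3.30e-10, edgeR). As HSPA1A held under 1% of the counts of the pair, this sum is in effect the value of HSPA1B.

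HSPA2, an HSP70 that is best known from the testis, was at 3.30 and 3.20 CPM in WT and at 6.34 and 5.19 CPM in Helz-null libraries, from 207, 131, 262 and 362 counts. It was up-regulated with a log2FC of 0.81 (SE 0.14; adjusted p = 1.39e-05, edgeR), and its log2FC stayed between 0.67 and 0.96 when any 1 library was left out. Its FPKM was at most 1.19 in WT and was 2.29 and 1.88 in Helz-null libraries, so that it was in the tested set through Helz-null cells alone, and with no filter on genes its log2FC was 0.81 as well. HSPH1, a large HSP70 relative that exchanges nucleotide on HSP70, was at 307 and 328 CPM in WT and at 349 and 351 CPM in Helz-null libraries (log2FC 0.14, SE 0.030, adjusted p = 0.000193, edgeR). Its call was lost without WT replicate 1, where the log2FC was 0.093, and without Helz-null replicate 2.

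Both HSPA8 and HSPA9, which are constitutive, were called for small changes, of -6.32% and -6.29%. HSPA8, the main HSP70 of unstressed cytosol, was at 2070 and 1992 CPM in WT and at 1908 and 1897 CPM in Helz-null libraries (log2FC -0.094, SE 0.026, adjusted p = 0.0031, edgeR). HSPA9, the HSP70 of mitochondria, was at 565 and 552 CPM against 526 and 522 CPM (log2FC -0.094, SE 0.027, adjusted p = 0.0049, edgeR). Neither gene's groups overlapped, but both calls were lost under library size scaling, without WT replicate 1 and without either Helz-null library, so that 2 HSP70 genes were called down in each of those fits. HSPA9 was also lost with the size factors of DESeq2 in edgeR and when genes were selected by an FPKM above 2 computed here. HSPA5, the HSP70 of the ER and a classic target of ER stress, was at 767 and 807 CPM in WT and at 803 and 808 CPM in Helz-null libraries, with overlapping groups and no call (log2FC 0.034, adjusted p = 0.334, edgeR). HSPA12A, a distant relative, missed the threshold narrowly with a log2FC of 0.18 (adjusted p = 0.0054, edgeR).

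The cytosolic HSP90 genes parted. HSP90AB1, the constitutive form, on chromosome 6 from 44213903 to 44221625, was at 2328 and 2186 CPM in WT and at 1908 and 1880 CPM in Helz-null libraries. It fell by 16.1%, with a log2FC of -0.25 (SE 0.027; adjusted p = 4.90e-10, edgeR). HSP90AA1, the stress-inducible form, was at 3011 and 2918 CPM in WT and at 3019 and 2975 CPM in Helz-null libraries, with overlapping groups and no call (log2FC 0.016, SE 0.026, adjusted p = 0.654, edgeR). Per kilobase of gene (FPKM), the ratio of HSP90AB1 to HSP90AA1 was 1.09 and 1.05 in WT and 0.890 and 0.889 in Helz-null libraries, so that the order of the pair turned. HSP90B1, the HSP90 of the ER, was at 743 and 769 CPM in WT and at 800 and 802 CPM in Helz-null libraries and was not called (log2FC 0.084, adjusted p = 0.0105, edgeR). Under library size scaling HSP90B1 was called up. No HSP90 gene was called up in the main fit of edgeR or by DESeq2, and 2 of the 3 had an unadjusted p under 0.05, as did 50.9% of all tested genes. Without WT replicate 2, 1 was called up.

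Both genes of the mitochondrial chaperonin were down-regulated, where 15.5% of all tested genes were called down. HSPD1, which encodes the HSP60 ring, was at 1492 and 1451 CPM in WT and at 1294 and 1292 CPM in Helz-null libraries (log2FC -0.19, SE 0.026, adjusted p = 1.55e-07, edgeR). HSPE1, which encodes its HSP10 lid, was at 274 and 283 CPM against 235 and 246 CPM (log2FC -0.21, SE 0.030, adjusted p = 3.69e-07, edgeR). The genes lie on opposite strands of chromosome 2, HSPD1 from 198351308 to 198381461 on the minus strand and HSPE1 from 198364864 to 198368173 on the plus strand within the annotated span of HSPD1, and annotated exons of the genes overlap. The use of strand in the counting is not given in the sources used here, so their reads could not be fully told apart where exons overlap. HSPE1-MOB4, a read-through on the strand of HSPE1, was called down too (log2FC -0.11, adjusted p = 0.0034, edgeR). Its annotated exons overlap those of HSPE1, and whether their counts come from the same reads was not tested. The FPKM ratio of HSPE1 to HSPD1 was 0.470 and 0.499 in WT and 0.464 and 0.487 in Helz-null libraries, and these ranges overlapped. The annotation also holds 18 pseudogenes of HSPD1 and 26 of HSPE1, which could take or give reads.

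TRiC, which folds actin and tubulin among other proteins, showed little change. Of 8 tested subunit genes only CCT4 was called, where 29.4% of all tested genes were called in either direction and 15.5% down. CCT4 was at 683 and 683 CPM in WT and 635 and 626 CPM in Helz-null libraries (log2FC -0.12, SE 0.027, adjusted p = 0.00054, edgeR). The log2FC of the other subunits lay between -0.079 for CCT2 and 0.037 for CCT8, with CCT6A at -0.078, CCT7 at -0.059, CCT3 at -0.0076, TCP1 at 0.022 and CCT5 at 0.024. No subunit was called up by edgeR or DESeq2, and 3 of 8 had an unadjusted p under 0.05, against 50.9% of all tested genes. The single call was lost under library size scaling and depended on the libraries used: 4 subunits were called down without WT replicate 2, and 0 without Helz-null replicate 1 or without Helz-null replicate 2. Summed over the class, the level in Helz-null cells was 0.980 of that in WT. CCT6B, a subunit of the testis, was at 0.902 to 1.22 CPM and was not tested.

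No small heat shock gene was called in the main fit of edgeR or by DESeq2, and 2 of the 3 tested had an unadjusted p under 0.05, against 50.9% of all tested genes. The median log2FC of the 3 was 0.13. HSPB1, the HSP27 gene and the most abundant of them, was at 69.5 and 78.9 CPM in WT and at 83.9 and 78.5 CPM in Helz-null libraries, with overlapping groups (log2FC 0.13, SE 0.045, adjusted p = 0.0143, edgeR). Its log2FC was 0.037 without WT replicate 1 and 0.22 without WT replicate 2, so that its size rested on single libraries. Under library size scaling, and with the replicate number added to the edgeR fit, HSPB1 was called up. HSPB11, whose product works in intraflagellar transport in spite of its name, had a log2FC of 0.14 (adjusted p = 0.0246, edgeR) and HSPB8 one of 0.023. With 1 library left out, 1 small heat shock gene was called up without WT replicate 2 and without Helz-null replicate 2.

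**Figure D2:**
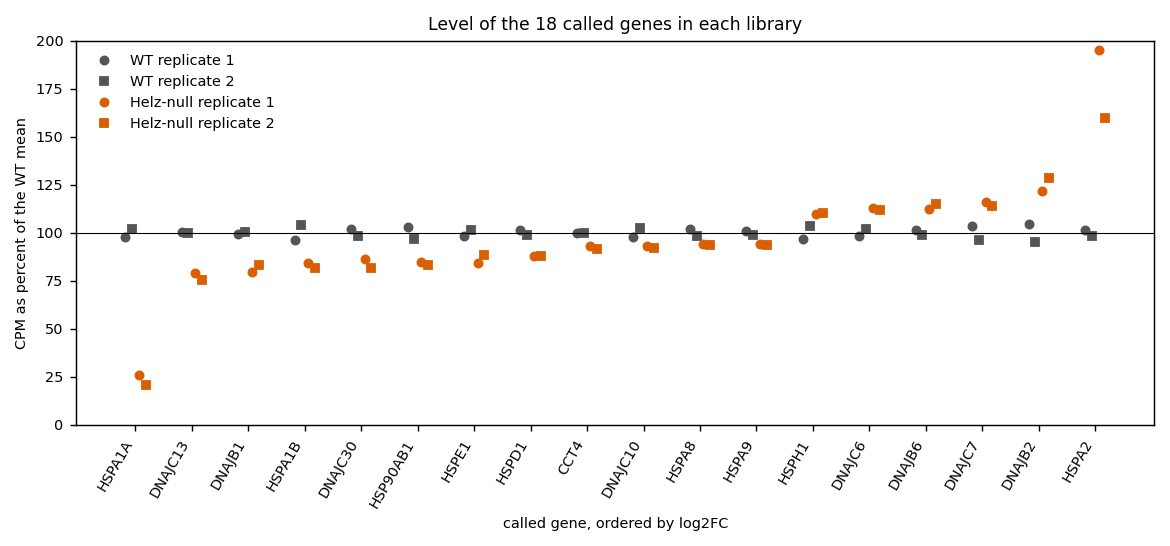
Level of each of the 18 called genes in each library, as CPM in percent of the mean of the WT libraries, with genes ordered by log2FC, WT in grey and Helz-null in orange. In every gene shown both Helz-null libraries lie on 1 side of both WT libraries, which follows in part from the calls themselves, and HSPA1A and HSPA2 lie farthest from WT.

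J-domain genes were the most numerous of the genes chosen. The 3 tested genes of class A, the type closest to bacterial DnaJ, were not called by edgeR or DESeq2, with 1 of the 3 at an unadjusted p under 0.05, against 50.9% of all tested genes. DNAJA1, the most abundant, was at 379 and 380 CPM in WT and at 371 and 374 CPM in Helz-null libraries (log2FC -0.027, adjusted p = 0.464, edgeR).

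Class B had 2 up-regulated and 1 down-regulated gene of 9 tested, near the 29.4% called among all tested genes. DNAJB1, the stress-inducible partner of HSP70, was at 188 and 191 CPM in WT and at 151 and 158 CPM in Helz-null libraries. The groups were well apart, and it fell by 18.5% (log2FC -0.30, SE 0.032, adjusted p = 5.13e-10, edgeR). It lies on chromosome 19 from 14625581 to 14671203, minus strand, where it overlaps TECR on the other strand. TECR was itself up-regulated (log2FC 0.18, adjusted p = 2.73e-05, edgeR), and whether the genes share counted reads was not tested. DNAJB2, a neuron-enriched gene whose product sends HSP70 clients to degradation, was at 24.7 and 22.5 CPM in WT and at 28.7 and 30.3 CPM in Helz-null libraries (log2FC 0.32, SE 0.063, adjusted p = 5.91e-05, edgeR). DNAJB6, whose product keeps aggregation-prone proteins apart, was at 182 and 178 CPM against 202 and 207 CPM (log2FC 0.18, SE 0.031, adjusted p = 5.10e-06, edgeR). The ER genes DNAJB9 and DNAJB11 were not called, with a log2FC of -0.18 and 0.025.

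Class C, a varied group that shares little beyond the J domain, had 2 up-regulated and 3 down-regulated genes of 22 tested, or 22.7% called, against 29.4% of all tested genes. DNAJC13, which acts on endosomes, was at 77.7 and 77.4 CPM in WT and at 61.2 and 58.5 CPM in Helz-null libraries. It fell by 23.0% (log2FC -0.38, SE 0.041, adjusted p = 6.37e-10, edgeR), the lowest log2FC among the J-domain genes tested. DNAJC7, which binds both HSP70 and HSP90, was at 211 and 196 CPM in WT and at 235 and 231 CPM in Helz-null libraries (log2FC 0.20, SE 0.032, adjusted p = 3.30e-06, edgeR). It overlaps CNP on the other strand, which was also up-regulated (log2FC 0.18, adjusted p = 1.65e-05, edgeR), and NKIRAS2, which was not called (log2FC 0.054).

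The remaining calls of class C were less secure. DNAJC30, a mitochondrial protein tied to complex I, was at 19.5 and 18.8 CPM in WT and at 16.6 and 15.6 CPM in Helz-null libraries (log2FC -0.26, SE 0.074, adjusted p = 0.0039, edgeR). DNAJC10, a reductase of the ER, had a log2FC of -0.11 (SE 0.031, adjusted p = 0.0038, edgeR), and DNAJC6, the auxilin that strips clathrin from vesicles, one of 0.17 (SE 0.049, adjusted p = 0.0048, edgeR). DESeq2 called none of the 3, leaving 1 gene up and 1 down in class C, and all 3 calls were lost without either Helz-null library. DNAJC10 was lost without WT replicate 2 too, and DNAJC30 and DNAJC6 without WT replicate 1. DNAJC10 and DNAJC30 were also lost under library size scaling, DNAJC10 and DNAJC6 with the filterByExpr gene filter of edgeR, DNAJC6 with no filter and DNAJC30 with thinned libraries. Without either Helz-null library, class C had 1 gene called in each direction. DNAJC8, a splicing factor and the most abundant of the class per kilobase, was at 292 and 290 CPM in WT and at 311 and 308 CPM in Helz-null libraries, and was not called (log2FC 0.086, adjusted p = 0.0129, edgeR).

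Levels can be compared between genes only per length. By FPKM, HSPA8 led the 62 genes in every library, between 771 and 841. HSP90AB1 was at place 2 in WT and 3 in Helz-null libraries, where HSP90AA1 was at place 2. HSPD1, CCT3, CCT7 and TCP1 followed at places 4, 5, 6 and 7 in all 4 libraries. Values of these 4 genes did not overlap over the libraries, whereas those of HSP90AB1 and HSP90AA1 did. HSPA1B was at place 9 and 8 in WT and 11 and 13 in Helz-null libraries. The TRiC subunits, which stand side by side in the ring in equal numbers, had unequal FPKM. CCT5 was lowest, from 139 to 143 FPKM, and CCT3 highest, from 403 to 423 FPKM, 2.86 to 2.99-fold apart within a library. The place of CCT5 depends on its deposited gene width, 4032 bases against 2032 to 2664 for the other tested subunits. By CPM, CCT5 at 559 to 577 lay above CCT2 at 456 to 491. Whether these widths match the transcripts expressed was not tested.

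**Figure D3:**
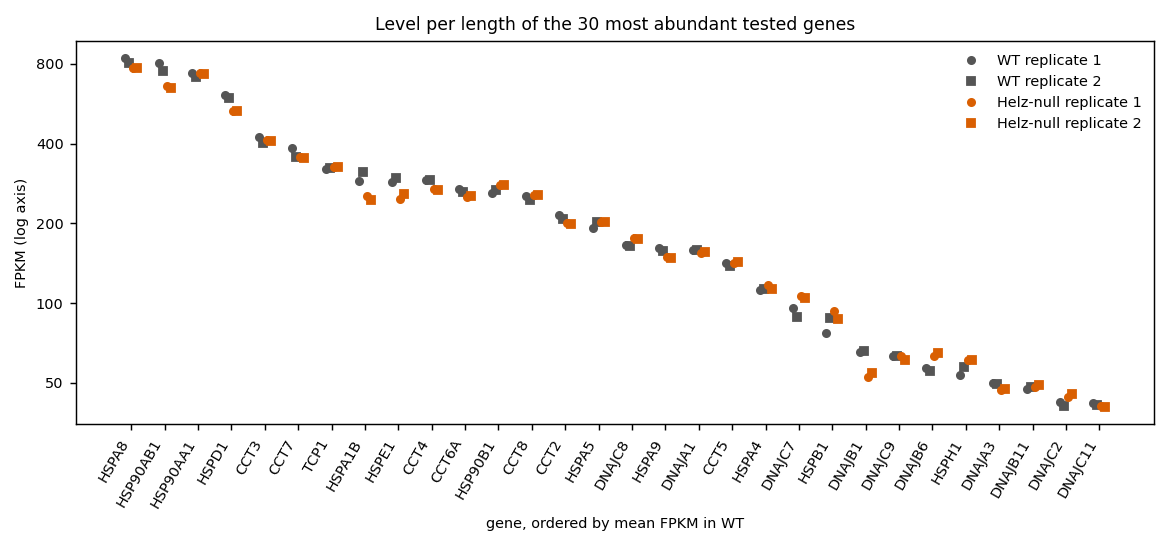
FPKM, on a log axis, of the 30 heat shock and chaperone genes with the highest mean in WT, with 1 point for each library, WT in grey and Helz-null in orange. HSPA8 is highest in all 4 libraries, and HSP90AB1 lies above HSP90AA1 in both WT libraries and below it in both Helz-null libraries.

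The chromosomal surroundings of the genes were compared with the genes themselves. For each tested gene the median log2FC of up to 10 tested genes on either side was taken, with positions from a GENCODE annotation of GRCh37. In 61 of the 62 neighbourhoods this median was within 0.15 of 0. The exception was DNAJB6, on chromosome 7 from 157128075 to 157210133, whose 13 neighbours had a median log2FC of 0.34, above the 0.18 of DNAJB6 itself. DNAJB6 thus rose by less than the median of its surroundings. Around DNAJB1 the median was 0.11 while DNAJB1 was at -0.30, and around DNAJC13 it was 0.0018 with DNAJC13 at -0.38.

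Other features shared by the called genes were few. HSPA1A, HSPA1B, HSPA2 and DNAJC30 are the 4 tested members with a single exon, and all 4 were called, 1 up and 3 down. As HSPA1A and HSPA2 could be tested only through the group where they were high, this count is partly set by the selection of genes. Among 182 tested protein-coding genes with 1 exon, 29.7% were called, close to the 29.4% of all genes. The median GC content of the transcripts was 43.5% for the 62 genes and 48.3% for all tested genes, and was 47.4% for the 6 up-regulated, 44.1% for the 12 down-regulated and 42.6% for the other 44 genes. Of the genes with a heat shock element in the promoter, HSPA8 was down-regulated, DNAJB6 was up-regulated, DNAJA1 was not called and HSPA6 was not tested. The down-regulated HSPA1B, HSP90AB1, HSPD1, HSPE1 and DNAJB1 had no copy of the searched letters in the window. Only exact spellings in a single window were searched, so other HSF1 sites of these genes could be missed.

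The regulators and partners of the chaperones were followed through a fixed list of 59 genes, of which 58 were tested, 7 were up-regulated and 13 down-regulated, with a median log2FC of -0.014. Beside the 13.9% up and 15.5% down of all tested genes, the 20 calls of 58 are near the background. Of 9 tested regulators, 3 were called up and 1 down, beside the same shares. HSF1, the heat shock factor, was at 101 and 99.7 CPM in WT and at 111 and 118 CPM in Helz-null libraries (log2FC 0.19, SE 0.036, adjusted p = 2.32e-05, edgeR), a call that was lost without Helz-null replicate 2. HSBP1, which binds HSF1 and inhibits it, was also up-regulated (log2FC 0.12, adjusted p = 0.0016, edgeR), as was the ER stress factor ATF6 (log2FC 0.23, adjusted p = 5.89e-06, edgeR). ATF4, the factor of the integrated stress response, was down-regulated (log2FC -0.11, adjusted p = 0.0014, edgeR). The calls of HSBP1 and ATF4 were lost without either Helz-null library, that of HSBP1 also without WT replicate 1 and that of ATF4 also under library size scaling. These are mRNA levels, and the activity of the factors was not measured.

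Among HSP90 partners, 4 of 12 were called, all down, where 15.5% of all tested genes were called down and 29.4% in either direction. UNC45A, a myosin chaperone that binds HSP90, was at 125 and 118 CPM in WT and at 88.1 and 87.9 CPM in Helz-null libraries (log2FC -0.47, SE 0.036, adjusted p = 5.29e-14, edgeR). The chromosomal surroundings of UNC45A and the other listed partners were not compared. PPID, the cyclophilin 40 gene, had a log2FC of -0.26 (adjusted p = 1.50e-06, edgeR), and CHORDC1 and FKBP4 were at -0.20 and -0.15. Of 14 HSP70 partners, 4 were called down and 1 up, against 15.5% and 13.9% of all tested genes. The nucleotide exchange factors of mitochondrial HSP70 were both down-regulated, GRPEL2 with a log2FC of -0.27 (adjusted p = 1.64e-06, edgeR) and GRPEL1 with one of -0.12. BAG5 and BAG4 were at -0.22 and -0.20, and BAG6 was the gene called up, at 0.11. The call of GRPEL1 was lost with DESeq2, with filterByExpr, with thinned libraries, under library size scaling, without WT replicate 1 and without either Helz-null library. That of BAG6 was lost with DESeq2, with filterByExpr and without Helz-null replicate 1, and that of BAG4 without Helz-null replicate 2.

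In mitochondria, the protease gene LONP1 was down-regulated (log2FC -0.28, adjusted p = 6.73e-09, edgeR) and CLPX, part of the ClpXP protease, was up-regulated (log2FC 0.17, adjusted p = 0.0020, edgeR), of 5 genes tested, where 29.4% of all tested genes were called. CLPX was not called by DESeq2, and its call was lost without WT replicate 1 and without either Helz-null library. Of 9 ER chaperone genes, PDIA4 and CRELD2 were up-regulated and CANX and MANF down-regulated, 4 calls of 9 beside the same 29.4%. PDIA4, a disulfide isomerase, was at 342 and 355 CPM in WT and at 436 and 451 CPM in Helz-null libraries (log2FC 0.35, SE 0.029, adjusted p = 5.60e-13, edgeR). CRELD2 and MANF, both known to respond to ER stress, moved in opposite directions, at 0.24 and -0.17, and CANX, the lectin chaperone calnexin, was at -0.10. The call of CANX was lost under library size scaling, without WT replicate 2 and without either Helz-null library. Of 9 prefoldin and TRiC cofactor genes, PFDN4 was the one called, below that share, at a log2FC of -0.23 (adjusted p = 0.00076, edgeR). DESeq2 called none of the 9, and 2 of them had an unadjusted p under 0.05 with edgeR. The call of PFDN4 was also lost without Helz-null replicate 1, where its log2FC was -0.16.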

How the data were processed

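RNA-Seq libraries of 2 WT and 2 Helz-null samples were used. The authors removed ribosomal reads with Bowtie2, mapped read pairs to hg19 with TopHat2 and counted them per gene with QuasR, and deposited raw counts with a gene width. Versions, annotation, strand use and the treatment of multiply mapping reads are not given in the sources used here. The deposited comparison also holds the authors' p-values and FDR, and their changes and mean levels on the log2 scale, and only its gene list was used.

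Counts were fitted in R 4.3.3 with edgeR 4.0.16 (TMM, glmQLFit, glmQLFTest, genotype as the only term), with Benjamini-Hochberg adjustment over the 10978 genes and an FDR threshold of 0.005. SE values came from the log2FC and the F statistic. FPKM was computed from TMM-scaled CPM and the width. DESeq2 1.42.0, other scalings, filters, thinning, a replicate block, a fold threshold and single left-out libraries were alternatives, and adding HSPA1A to HSPA1B was chosen after seeing the data. The biological coefficient of variation was 2.6%. In simulated data for this comparison, 53 of 68 genes changed 1.2-fold, 72 of 72 changed 1.5-fold and 2 of 10778 unchanged genes were called over 10978 genes. The same dispersion was used for every simulated gene, and changes were planted only in genes above a low level. These rates hold for that setting, and real genes may differ in dispersion. The study calls the replicates biological, and p-values measure only the spread between these libraries. Libraries of a group differed by more than counting noise (chi-square per degree of freedom 4.16 in WT, 3.01 in Helz-null).

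The members, lists and tests were chosen with earlier results of these data known. Named genes were HELZ, HSF1, canonical members, up to 3 genes called in each direction with the largest change per class, the member of each class with the highest FPKM, up to 5 listed partners called in each direction and members of small groups of calls. HSPA6, HSPA12A, DNAJC27, HSPB2, CCT8L2, CCT6B, DNAJB9, DNAJB11, HSPB8, HSPB11, the overlapping genes and the further partners were named after their values were seen. Protein sequences were not used here.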

Additional observations from a re-analysis of the deposited data

How the results depend on the processing

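With 2 libraries a group, several calls depended on single libraries. The number of up-regulated genes among the 62 was 5 to 8 when 1 library was left out, 11 under library size scaling, 13 at an FDR under 0.05 and 1 when a fold of at least 1.2 was tested. The number of down-regulated genes was 7 to 14 with 1 library left out, 7 under library size scaling and 1 with the fold tested. The median log2FC ran from -0.025 to 4.84e-06 with 1 library left out and was 0.015 under library size scaling, -0.030 with filterByExpr and -0.032 with no filter. Under library size scaling, the median of class C became 0.031, CCT3 0.026 and DNAJA1 0.0064. The median of class B became -0.017 with filterByExpr, and that of the small heat shock genes went from 0.13 to -0.026 with no filter, which added genes of very few counts. With 1 library left out, medians ran from -0.067 to 0.0099 for TRiC, -0.031 to 0.039 for class B and -0.0054 to 0.017 for class C, and log2FC from -0.041 to 0.029 for CCT3, -0.11 to 0.0019 for CCT7, -0.0052 to 0.038 for HSP90AA1 and -0.0034 to 0.073 for HSPA5. HSPA1A and HSPA2, which exceeded an FPKM of 2 in 1 genotype only, were called under all 13 alternatives at the 0.005 threshold, including no filter on genes, and HSPA1B, HSP90AB1, HSPD1, HSPE1, DNAJB1, DNAJB2, DNAJB6, DNAJC7 and DNAJC13 under 12, all but the fold test. Of the 20 called partners and regulators, UNC45A was called under all 13. All alternatives refit the same libraries or some of them, so they are not independent support. No refit shows how reads shared by HSPA1A and HSPA1B were counted. With a replicate block 8 genes were called up and 12 down. Same-numbered libraries deviated with a correlation of 0.034 over 2 pairs, so the numbers were taken as names only. Over all tested genes, calls were 1102 up and 1288 down with DESeq2, 217 and 318 with the fold tested, 2371 and 2506 at an FDR under 0.05, and as few as 1027 and 1180 with 1 library left out. The cause of these differences was not tested, other than the smaller number of samples or the stricter rule itself.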
